A study of Mus musculus with 10 samples.

Results

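The stretch of mouse chromosome 1 that carries the interferon-inducible Ifi200 gene cluster was followed through 10 mice by array-based comparative genomic hybridisation of liver DNA. Its members were chosen by position, as the probes that start within a window of 1 Mb on chromosome 1 of build mm9, which gave 71 of 161460 autosomal probes. The first begins at 175206348 and the last ends at 176182762. The window was proposed with results of these same animals in view, so the levels of its probes are a description. The 5 ICSI-derived mice were ZFLacZ progeny obtained by injecting sperm into oocytes (ICSI), and the sperm came from testis cells kept frozen for 14 years. Their oocytes came from DBA x C57BL/6 females, and the ZFLacZ transgenic line itself goes back to an SJL x C57BL/6 background. The 5 naturally born mice were adult ZFLacZ progeny, called wild-type in the labels, for which no strain background is given; no age is given for the ICSI-derived mice. Both groups held 3 animals labelled male and 2 labelled female. A difference in background between the groups and the mode of conception therefore cannot be told apart. Each animal's DNA, labelled with Cy5, was hybridised against a common Cy3 reference that mixed DNA of 3 strains (C57BL/6, SJL and DBA) in equal parts, called the pool here, so a log2 ratio above 0 is more signal from the animal than from the pool.

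The Ifi200 or PYHIN family encodes proteins built from a DNA-binding HIN domain and, in most members, a pyrin domain that recruits other pyrin proteins. Aim2 senses double-stranded DNA in the cytosol and assembles an inflammasome that activates caspase-1, Ifi202b encodes a HIN protein without a pyrin domain that can restrain Aim2, and Ifi204 is the mouse counterpart most often compared with human IFI16. Ifi203, Ifi205 and Mnda encode further family members, of which Mnda takes its name from the human myeloid nuclear differentiation antigen. The family is known to differ between inbred mouse strains in gene content and sequence. On a hybridisation array a probe's ratio can move with the number of copies and with sequence differences under the probe, and the files used here do not separate these.

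In the RefSeq gene table of build GRCm38.p6 the cluster follows Cadm3, a neuronal cell adhesion gene. The table holds 13 protein-coding family genes there, in the order Aim2, Ifi206, Ifi214, Ifi213, Ifi209, Ifi208, Ifi207, Ifi204, Mndal, Ifi211, Ifi203, Ifi202b and Ifi205. It lists Mnda as a synonym of Ifi211. The probes carry mm9 positions and no gene names, and the table is of another build, so no probe is assigned to a gene here and the label of the window could not be checked against gene content.

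A feature found in most of the family genes was read from the RefSeq promoter sequences of the same build. These run from 250 bases before to 50 bases after each gene's start and hold 12 of the 13 genes. The interferon-stimulated response element, searched on both strands as 2 copies of GAAA with any 2 bases between them, was found for 9 of these 12 genes, against 3.99% of 27025 genes in the table. Counted by promoter it was in 10 of 14, against 3.44% of 32851. The motif was chosen with the sequences at hand. Aim2, Ifi202b and Ifi209 had no match in this window. The stretches of 40 bases around the match are shown for the match on the gene's own strand in all 9 genes, so that the copies can be compared, with the element in capitals.
Ifi203 (GRCm38.p6, chr1:173942503-173942542, minus strand): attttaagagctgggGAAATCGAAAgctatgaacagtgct
Mndal (GRCm38.p6, chr1:173880199-173880238, minus strand): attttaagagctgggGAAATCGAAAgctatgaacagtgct
Ifi208 (GRCm38.p6, chr1:173673592-173673631, plus strand): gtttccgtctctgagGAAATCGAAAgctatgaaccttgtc
Ifi213 (GRCm38.p6, chr1:173599321-173599360, minus strand): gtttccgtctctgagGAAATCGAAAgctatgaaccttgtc
Ifi206 (GRCm38.p6, chr1:173491334-173491373, minus strand): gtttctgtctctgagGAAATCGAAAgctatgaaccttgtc
Ifi211 (GRCm38.p6, chr1:173913059-173913098, minus strand): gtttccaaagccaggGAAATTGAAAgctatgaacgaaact
Ifi205 (GRCm38.p6, chr1:174031865-174031904, minus strand): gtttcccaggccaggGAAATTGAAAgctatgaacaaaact
Ifi207 (GRCm38.p6, chr1:173741826-173741865, minus strand): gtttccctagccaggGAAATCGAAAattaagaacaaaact
Ifi214 (GRCm38.p6, chr1:173536012-173536051, minus strand): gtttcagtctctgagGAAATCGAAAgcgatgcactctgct
The stretches of Ifi203 and Mndal were identical over all 40 bases, as were those of Ifi208 and Ifi213. The count of genes with a match therefore includes copies of the same sequence. On the gene's strand the element read GAAATCGAAA in 7 of the 9 genes and GAAATTGAAA in Ifi205 and Ifi211. On the opposite strand there were further matches with other letters between the copies, at position -54 from a start of Mndal and at position 23 from the start of Ifi205. Whether a probe matches more than 1 family gene was not tested, since probe sequences were not used here. The GRCm38.p6 positions are not comparable with the mm9 positions of the probes.

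All 71 probes were well above background in both channels on all 10 arrays and none was saturated. The median spacing of the probes was 10.8 kb and the probes were 47 to 60 bases long. Probe-to-probe noise, as the scanner software computed it, was highest on 3 arrays. It was 0.20 in ICSI-derived replicate 1, 0.21 in ICSI-derived replicate 4, 0.17 in naturally born replicate 2 and 0.14 to 0.15 elsewhere. One array stood apart on the sex chromosomes, that of naturally born replicate 3, labelled male, at -0.033 on chromosome X, where the other labelled males lay between -0.61 and -0.55 and the labelled females between 0.26 and 0.28. On chromosome Y it was at -0.0072, against 0.75 to 0.82 in the other labelled males and -1.57 to -1.42 in the labelled females. The counts of variable probes, of probes with the same animals at one end, of probes with all animals on 1 side and of segments are also given without it.

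Averaged over the window, the animals lay close to the pool and to each other. The mean log2 ratio over the 71 probes was 0.041, 0.094, 0.095, 0.088 and 0.090 in ICSI-derived replicates 1 to 5, and 0.059, 0.055, 0.12, 0.077 and 0.076 in naturally born replicates 1 to 5. All 10 values were above 0 and the groups overlapped: the mean was 0.082 ± 0.023 for the ICSI-derived group and 0.077 ± 0.026 for the naturally born group (SD, n = 5 each). The difference of 0.0044 was smaller than the spread between animals of a group. Within the 3 slides, each of which held both groups equally, it was 0.011, -0.0069 and 0.014.

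No member probe was called between the groups by limma, at an adjusted p under 0.05. Over all 161460 autosomal probes 0.0155% were called higher and 0.00434% lower in ICSI-derived animals. At an unadjusted p under 0.05 there was 1 member, against 3.27% of all autosomal probes. This count was 10 without ICSI-derived replicate 1 (3.55% of all), 7 without naturally born replicate 2 (3.26%) and 4 without ICSI-derived replicate 4 (3.58%), with 0 called in each. The single probe, at 175308951 to 175309010, was at -0.045, 0.085, -0.038, -0.031 and -0.060 in ICSI-derived replicates 1 to 5, and 0.40, 0.22, 0.16, 0.067 and -0.034 in naturally born replicates 1 to 5. Its limma difference, ICSI-derived minus naturally born, was -0.18 ± 0.065 (SE, limma adjusted p = 1.0). Group means differed by -0.26 to 0.24 over the 71 probes, with a median of 0.022, and the ICSI-derived mean was the higher one at 43 probes and the lower one at 28. At no member did the groups part without overlap, where 0.264% of all autosomal probes had every ICSI-derived animal above and 0.246% every one below the naturally born animals.

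Within the window the animals nevertheless differed from each other more than at most places. The lowest and the highest animal were 0.5 or more apart at 25 of the 71 probes, that is 35.2%, against 15% of all autosomal probes. The median range over the 10 animals was 0.42 for the members and 0.33 for all autosomal probes. Without naturally born replicate 3 the count was again 25, against 14.4% of all autosomal probes. The window was proposed with values of these animals in view, so this share only describes it.

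**Figure D1:**
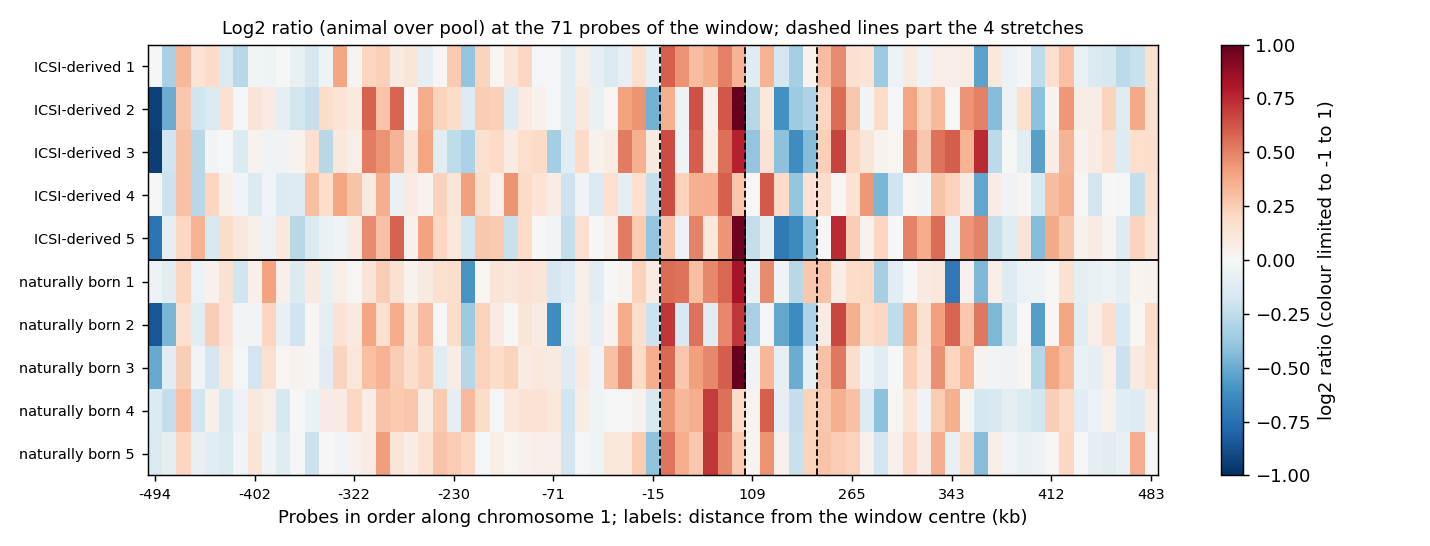
Log2 ratio of animal over pool (colour) at the 71 probes in order along chromosome 1, labelled by distance from the window centre in kb, for the 10 animals in rows; dashed lines part the 4 stretches. The rows of the animals ICSI-derived 2, 3 and 5 and of naturally born 2 share a pattern of red and blue probes, and most probes of the second stretch are red in all animals.

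One set of animals recurred at the ends of the range. For each probe the 4 highest and the 4 lowest animals were noted, a tally set up after the values had been seen. The animals ICSI-derived 2, 3 and 5 with naturally born 2 were the 4 highest at 10 member probes and the 4 lowest at 9, that is at one end at 19 of 71 probes or 26.8%. Over all autosomal probes the same 4 animals were at one end at 0.756%, as the highest at 0.395% and as the lowest at 0.36%. The next most frequent set of 4 in the window was at one end at 7 probes. Of the 25 probes with a range of 0.5 or more, 13 had the 4 animals at one end and the others followed other orders. Genome-wide the most frequent set was another one, the animals ICSI-derived 1 and 4 with naturally born 2 and 4, at 7.53% of autosomal probes. It holds the 3 arrays with the most noise. Of the window's 4 animals, ICSI-derived 2, 3 and 5 were often together genome-wide too. As a set of 3 they were at one end at 14.1% of members and 3.82% of autosomal probes. With naturally born 5 they made up the set of 4 ranked 3 of 210 genome-wide, at 3.78%. The 4 animals of the window's pattern came from 3 slides, were 3 labelled males and 1 labelled female, and made up 3 of 5 ICSI-derived and 1 of 5 naturally born animals. Without naturally born replicate 3 they were at one end at 21 probes, with 1.29% of all autosomal probes as background.

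The pattern changed its sign along the window. Over the 19 probes, taken in order, the 4 animals switched between highest and lowest 7 times. The gap between them and the nearest other animal was 0.023 at the smallest, 0.13 at the median and 0.47 at the largest of the 19 probes. The largest gap was at 176063175 to 176063234, where the log2 ratio was -0.53, 0.51, 0.75, -0.52 and 0.50 in ICSI-derived replicates 1 to 5, and -0.45, 0.53, 0.033, -0.17 and -0.42 in naturally born replicates 1 to 5. The 4 animals lay at 0.50 or above and the others at 0.033 or below, with naturally born replicate 3 nearest. Its limma difference between the groups was 0.24 ± 0.25 (SE, limma adjusted p = 1.0), smaller than its error. At the first probe of the window, 175206348 to 175206407, the same 4 animals were the lowest, with -0.012, -0.93, -0.94, -0.014 and -0.73 in ICSI-derived replicates 1 to 5, and -0.062, -0.86, -0.50, -0.14 and -0.14 in naturally born replicates 1 to 5. There naturally born replicate 3 lay between them and the other 5.

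**Figure D2:**
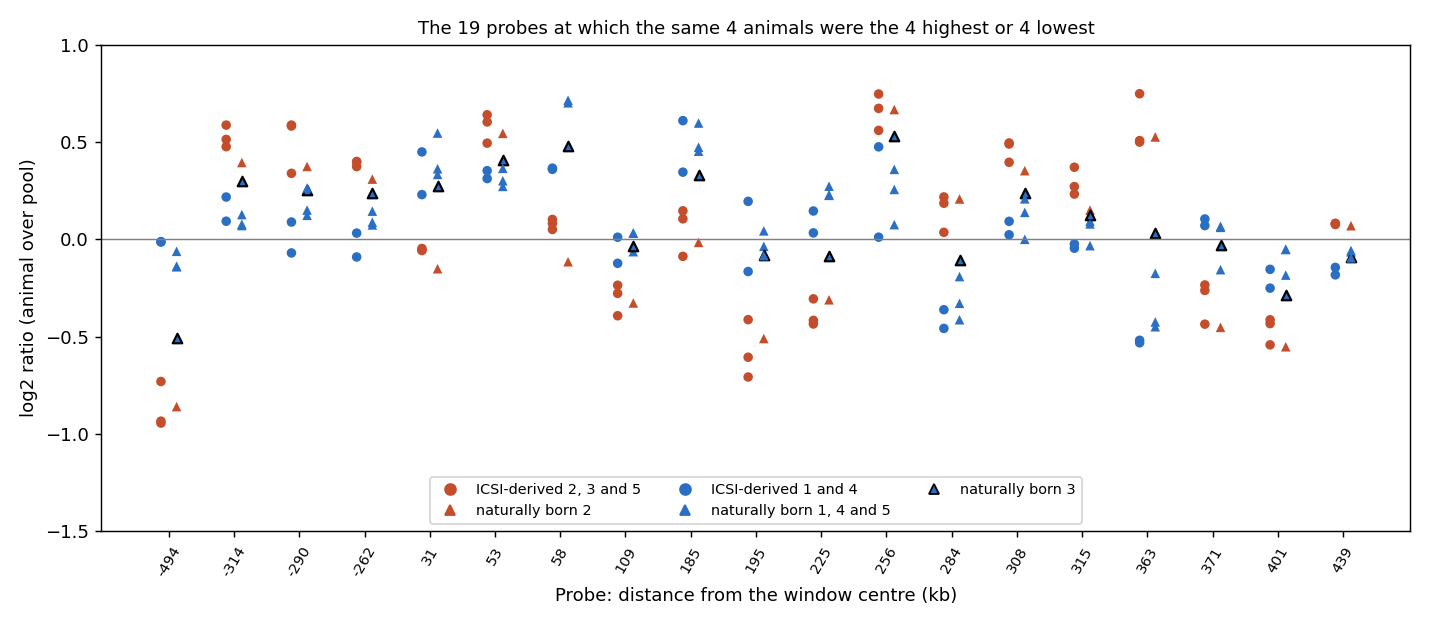
Log2 ratio of animal over pool at the 19 probes where the same 4 animals (red) were the 4 highest or the 4 lowest, by distance from the window centre in kb; circles are ICSI-derived and triangles naturally born animals, 1 point per animal. The red points lie above the blue ones at 10 probes and below them at 9, and the outlined triangle, naturally born replicate 3, is the nearest blue point at 12.

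Naturally born replicate 3 was the nearest of the other 6 animals to the 4 at 12 of the 19 probes. Correlations between pairs of animals over the 71 probes share the reference pool and each probe's own behaviour. The 4 animals were picked from these same probes. The correlations therefore restate that pattern and add no separate evidence. They ran from 0.80 to 0.90 within the 4 animals (6 pairs) and from 0.49 to 0.77 among the other 5 without naturally born replicate 3 (10 pairs). Between the 4 and those 5 they ran from 0.12 to 0.46 (20 pairs). Naturally born replicate 3 was at 0.70 to 0.79 with the 4 and at 0.48 to 0.66 with the other 5. Over all autosomal probes the pairs lay between 0.33 and 0.71.

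Read jointly over the 10 animals, the window divided into 4 stretches of constant mean level. This division rests on the penalty for a new stretch: with a penalty factor of 6 in place of 3 the window stayed whole. The first stretch, 36 probes from 175206348 to 175685258, lay between 0.014 and 0.082 in all animals. The group means were 0.049 ± 0.022 (ICSI-derived) and 0.043 ± 0.025 (naturally born; SD, n = 5 each). The 4 animals were at one end at 4 of its probes. Besides the first probe, the widest ranges in it were 1.00 at 175535632 to 175535691 and 0.84 at 175685199 to 175685258. At the former the values were -0.39, -0.13, -0.31, 0.41 and -0.19 in ICSI-derived replicates 1 to 5, and -0.59, -0.37, -0.28, 0.33 and 0.21 in naturally born replicates 1 to 5. Both groups spanned 0, and the 4 animals were not at one end.

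The second stretch was above the pool in every animal. Over its 6 probes, from 175715423 to 175796142, the mean log2 ratio was 0.43, 0.48, 0.44, 0.41 and 0.37 in ICSI-derived replicates 1 to 5, and 0.55, 0.37, 0.56, 0.43 and 0.44 in naturally born replicates 1 to 5. The groups overlapped, at 0.42 ± 0.038 and 0.47 ± 0.083 (SD, n = 5 each). All 10 animals were at 0.2 or above at 4 member probes, against 0.7% of all autosomal probes, and these 4 were all in this stretch. The count was 4 as well without naturally born replicate 3, against 0.738%. The steadiest of them was 175774697 to 175774756, with 0.51, 0.62, 0.55, 0.59 and 0.44 in ICSI-derived replicates 1 to 5, and 0.58, 0.48, 0.61, 0.55 and 0.48 in naturally born replicates 1 to 5, a range of 0.18. At 175796083 to 175796142 the animals instead ranged from 0.20 in naturally born replicate 4 to 1.24 in ICSI-derived replicate 2, with naturally born replicates 1 and 3 at 0.82 and 1.01.

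Inside this raised stretch, 2 probes set the 4 animals apart at the low end, and a probe between them, at 175753084 to 175753137, had them at the high end. At 175730759 to 175730809 the values were 0.45, -0.055, -0.047, 0.23 and -0.057 in ICSI-derived replicates 1 to 5, and 0.55, -0.15, 0.27, 0.33 and 0.36 in naturally born replicates 1 to 5. At 175758149 to 175758208 they were 0.37, 0.051, 0.082, 0.36 and 0.10 in ICSI-derived replicates 1 to 5, and 0.48, -0.12, 0.48, 0.70 and 0.71 in naturally born replicates 1 to 5. On both probes the 4 animals lay near the level of the pool or below it while the other 6 were above it by 0.23 or more, so the order of the animals differed between probes of the stretch. The limma differences between the groups were -0.17 ± 0.13 and -0.26 ± 0.12 (SE, limma adjusted p = 1.0 for each).

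The third stretch split the animals most. Its 5 probes from 175808526 to 175925011 averaged -0.048, -0.29, -0.34, 0.11 and -0.42 in ICSI-derived replicates 1 to 5, and 0.074, -0.36, -0.073, 0.11 and 0.11 in naturally born replicates 1 to 5. The 4 animals lay between -0.42 and -0.29, naturally born replicate 3 at -0.073 and ICSI-derived replicate 1 at -0.048, and the other 4 between 0.074 and 0.11. By group the means were -0.20 ± 0.22 (ICSI-derived) and -0.029 ± 0.20 (naturally born; SD, n = 5 each), and the difference of -0.17 was smaller than either SD. The 4 animals were the lowest at 4 of the 5 probes. At 175895321 to 175895380 the values were -0.17, -0.61, -0.41, 0.20 and -0.71 in ICSI-derived replicates 1 to 5, and -0.036, -0.51, -0.081, -0.084 and 0.043 in naturally born replicates 1 to 5. At 175924952 to 175925011 they were 0.033, -0.31, -0.43, 0.15 and -0.42 in ICSI-derived replicates 1 to 5, and 0.27, -0.31, -0.085, 0.23 and 0.23 in naturally born replicates 1 to 5. The groups overlapped on both, with or without naturally born replicate 2. That animal was as low as the 3 low ICSI-derived animals, and ICSI-derived replicates 1 and 4 lay above these 4 on both probes. The 4 animals were lowest at 175885322 to 175885381 too, where values ranged from -0.087 in ICSI-derived replicate 5 to 0.61 in ICSI-derived replicate 4. The probe at 175906149 to 175906208, where they were not at one end, was the only member with all 10 animals at -0.2 or below, from -0.64 to -0.22, against 0.207% of all autosomal probes. There was 1 such member too without naturally born replicate 3, against 0.225%.

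The fourth stretch, 24 probes from 175929276 to 176182762, averaged -0.0033, 0.15, 0.18, 0.020 and 0.16 in ICSI-derived replicates 1 to 5, and -0.035, 0.12, 0.11, 0.023 and 0.050 in naturally born replicates 1 to 5. Here the 4 animals were the highest, at 0.12 to 0.18, with naturally born replicate 3 next at 0.11, and the groups overlapped. The group means were 0.10 ± 0.086 and 0.053 ± 0.064 (SD, n = 5 each). The 4 animals were at one end at 8 of its probes, at the high end at 6. The widest range in the window was in this stretch, 1.32 at 176043123 to 176043182, with 0.067, 0.0036, 0.61, 0.23 and -0.064 in ICSI-derived replicates 1 to 5, and -0.71, 0.59, 0.21, 0.35 and -0.075 in naturally born replicates 1 to 5. This probe followed another order, with naturally born replicate 1 alone far below the rest. At 175955924 to 175955983 the 4 animals were highest again, at 0.56 to 0.75, but by a gap of only 0.031. Naturally born replicate 3 was next at 0.53 and ICSI-derived replicate 1 was at 0.47, while ICSI-derived replicate 4 was lowest at 0.011.

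**Figure D3:**
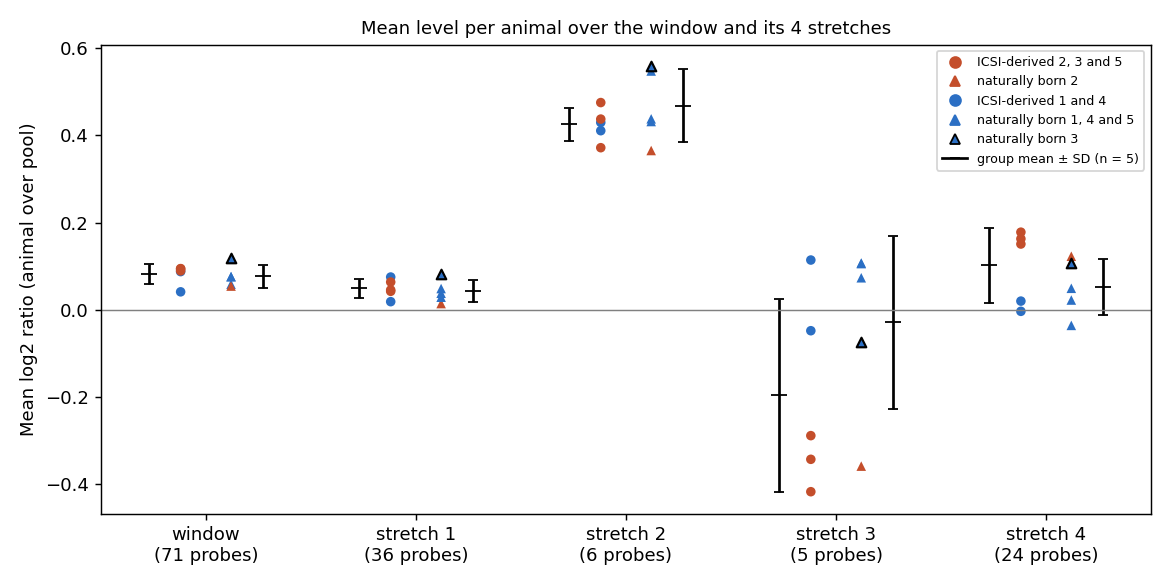
Mean log2 ratio of animal over pool per animal over the whole window and its 4 stretches; circles are ICSI-derived and triangles naturally born animals, red points are the 4 animals named above, and black bars give each group's mean ± SD (n = 5). The window's means lie between 0.041 and 0.12, those of stretch 2 between 0.37 and 0.56, and the red points are lowest in stretch 3 and highest in stretch 4.

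Segments called animal by animal, as runs of 5 or more probes with a mean of 0.25 or more from 0, numbered 8 in the window and lay in 6 animals. They covered 27 of the 71 probes in 1 or more animals, against 0.499% of all autosomal probes. Without naturally born replicate 3 there were 7 segments in 5 animals, over 26 probes, against 0.481%. Of the 8, 6 were gains and 2 losses, names that give only the sign of the mean log2 ratio. Naturally born replicates 1, 3, 4 and 5 each had 1 gain, and the 4 gains included the whole second stretch, at 0.39 to 0.55. ICSI-derived replicate 3 had 3 segments, a gain of 0.40 from 175668377 to 175796142, a loss of -0.34 over the third stretch and a gain of 0.36 from 175929276 to 176063234. ICSI-derived replicate 5 had the third stretch called as a loss of -0.42. Animals without a call at a place lay at similar levels there. Over the second stretch ICSI-derived replicates 1, 2, 4 and 5 were at 0.43, 0.48, 0.41 and 0.37, and naturally born replicate 2 at 0.37. Over the probes of the last gain, the other animals of the 4 were at 0.26, 0.30 and 0.29 (ICSI-derived 2 and 5, naturally born 2). Over the third stretch naturally born replicate 2 was at -0.36. The number of calls depended on the background correction and the segmentation, with 1 segment with normexp and 0 with a penalty factor of 6.

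The window is given by position, and the probes just outside it were noted with those just inside. The second probe inside its start, at 175220725, ranged from -0.50 to -0.087, and the 2 probes before it, at 175178498 and 175197601, from -0.18 to 0.32 and from -0.32 to 0.46. At the other edge the last 2 members, at 176171963 and 176182703, ranged from -0.24 to 0.38 and from -0.017 to 0.18. The 2 probes beyond, at 176204663 and 176232921, ranged from -0.37 to 0.50 and from 0.15 to 0.60. At none of these did the same 4 animals lie at one end, apart from the window's first probe given above.

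The same 4 animals also lay together at one end of the range beyond the window. In bins of 1 Mb, probes with these 4 animals at one end made up 26.8% of the window, 17.7% of the Mb after it (17 of 96 probes), 10% of the Mb before it (8 of 80) and 11.7% of the Mb before that (11 of 94). Over the 3 Mb before and the 3 Mb after the window they were 8.06% and 7.36%, against 0.98% on the rest of chromosome 1. Without naturally born replicate 3 the shares were 29.6% of the window, 19.8% of the Mb after it, and 13.8% and 14.9% of the first and second Mb before it. They were then 11% and 9.69% over the 3 Mb on either side, 1.87% on the rest of chromosome 1 and 1.29% of all autosomal probes. No test was made of these shares. Of 2369 autosomal bins with 20 or more probes, the highest share outside the 5 megabases of chromosome 1 around the window was 7.69%, from 2 of 26 probes.

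**Figure D4:**
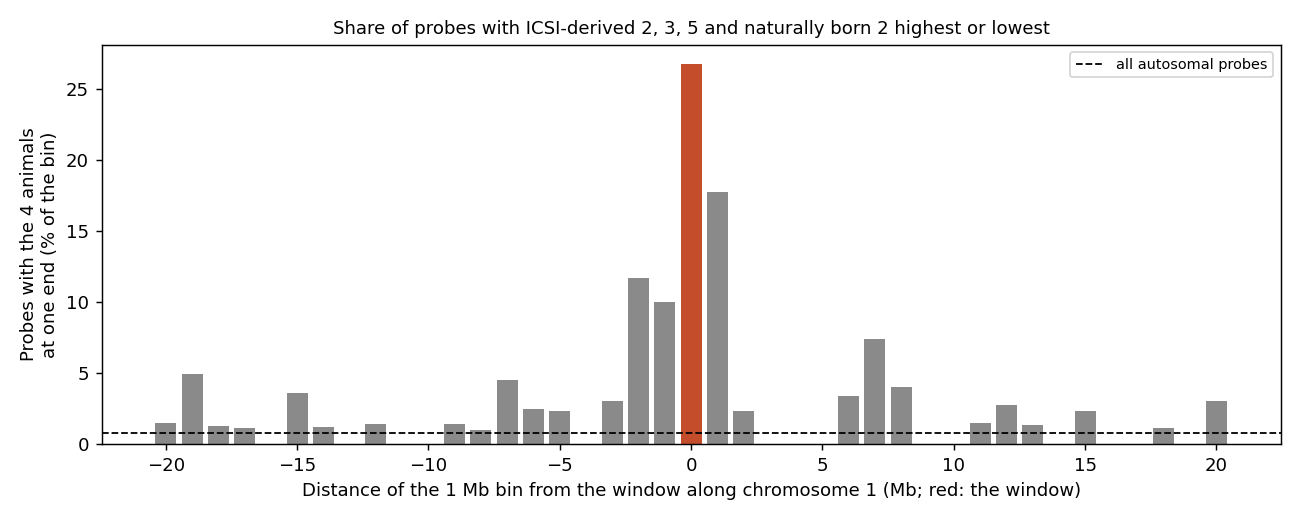
Share of probes (% of each 1 Mb bin) at which the same 4 animals were the 4 highest or the 4 lowest, by distance from the window along chromosome 1 in Mb; the red bar is the window and the dashed line the share of all autosomal probes, 0.756%. The bars from 2 Mb before to 1 Mb after the window are at 10% or more, and the next highest is 7.37%.

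Where the 4 animals stood apart by 0.2 or more, a limit set after the values were seen, most probes lay around the window. There were 24 such probes among all autosomal probes, or 0.0149%, and 6 of them were members. The bin from 173200000 to 174200000, before the window, held 7 of them. The gap was also wider there, at 1.52 for the probe at 173470547 to 173470606, against 0.47 at the largest in the window. In all, 20 of the 24 lay in a run of 4.36 Mb from 173044594 to 177409065, in which no neighbouring pair was 1 Mb or more apart, 3 lay elsewhere on chromosome 1 and 1 on chromosome 10. Without naturally born replicate 3 there were 36 such probes, 26 of them in the run and 8 in the window. The low end and the high end both occurred along the run. At 174947825 to 174947884, before the window, the values were -0.18, -0.84, -0.68, -0.16 and -0.71 in ICSI-derived replicates 1 to 5, and -0.072, -0.62, -0.29, -0.20 and -0.11 in naturally born replicates 1 to 5. At 177409006 to 177409065, after it, they were 0.34, 1.15, 1.03, 0.36 and 1.10 in ICSI-derived replicates 1 to 5, and 0.37, 0.99, 0.77, 0.43 and 0.42 in naturally born replicates 1 to 5. The 4 animals were the lowest at the first and the highest at the second, with naturally born replicate 3 nearest on both.

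The place most like the third stretch in its levels over the animals was a run of low ratios before the window. Its centre was at -2.22 Mb from the window's centre. Among 54 cores of segment regions outside the window, the 5 probes from 173457380 to 173511412 had the highest Pearson correlation with the third stretch over the 10 animals, 0.97. The animals fell into separate clusters here, so this value mainly describes which animals were low at both places, and no p is given. Within the clusters the order of the animals differed between the 2 places. The mean log2 ratio over this core was -0.25, -1.80, -1.79, -0.21 and -1.92 in ICSI-derived replicates 1 to 5, and -0.33, -1.77, -0.77, -0.29 and -0.36 in naturally born replicates 1 to 5. The 4 animals lay between -1.92 and -1.77, the other 5 between -0.36 and -0.21, and naturally born replicate 3 at -0.77. The next cores were on chromosomes 14, 3, 4 and 2, with correlations of 0.57 to 0.44. Of 161389 probes outside the window, the 5 with the strongest correlation in either direction included 3 on chromosome 1. Those at 173470547 and 173490386 lie in this core and had correlations of 0.97 each, and that at 173330314 lies before it and had -0.97. The other 2 were at 155508559 on chromosome 4 and 25458906 on chromosome 19, at -0.97 and 0.96 with ranges of 0.35 and 0.49. At 173470547 to 173470606 the 4 animals lay between -2.77 and -2.54 and the other 5, leaving out naturally born replicate 3 at -1.02, between -0.39 and -0.25.

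**Figure D5:**
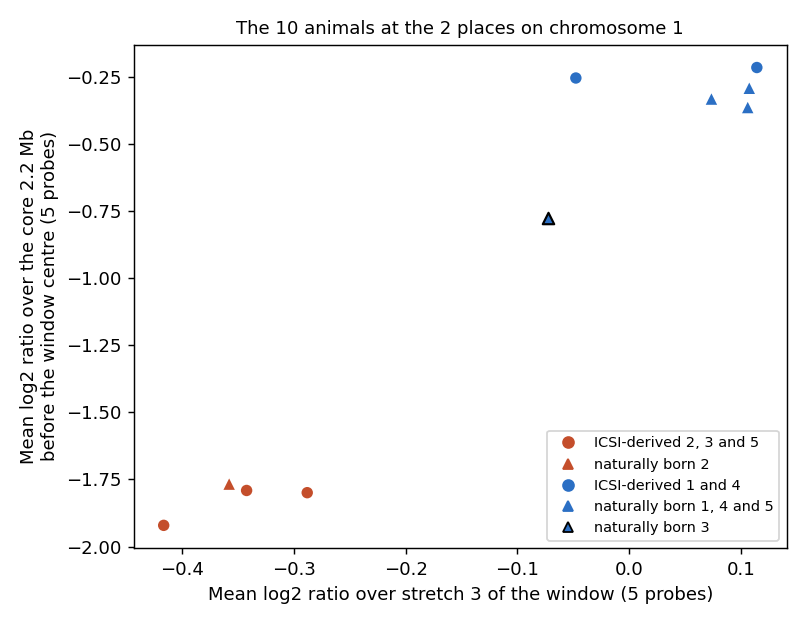
Mean log2 ratio of animal over pool over the third stretch of the window (x axis, 5 probes) and over the core before it (y axis, 5 probes), 1 point per animal; circles are ICSI-derived and triangles naturally born animals. The 4 red points lie at -0.29 or below on the x axis and at -1.77 or below on the y axis, and the outlined point, naturally born replicate 3, lies between them and the other 5.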

How the data were processed

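Liver DNA of 10 mice was measured on 2-colour Agilent arrays on 3 slides, with groups, sexes and replicate numbers from the labels. The deposited intensities were background-subtracted and dye-normalised by Feature Extraction 10.7.3.1, per the file headers. Uncorrected median intensities, also deposited, served the normexp alternative. The deposited table of log10 ratios was identical to the scanner files' log10 ratio column, Cy5 over Cy3, with no further centring. Partek 6.5 appears in the submitters' processing notes, with no stated role. Build mm9 is given by 6 headers, and all 10 files hold the same probe positions.

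Control spots were left out, spots of a probe averaged, and log2 ratios centred on each array's autosomal median. All autosomal probes were fitted with limma 3.58.1 in R 4.3.3 (group and sex, Benjamini-Hochberg at 0.05). Profiles were segmented by optimal partitioning (penalty factor 3, at least 5 probes, level 0.25), the window jointly over 10 animals. The limma fit and the segmentation of single profiles were run on simulated data, the latter with less noise than these arrays showed. The simulations do not bear on the joint division. Python 3.11.15 was used otherwise. The number of arrays limits the precision. Named probes were the 3 widest of each stretch, those at the edges and those most alike; the choice of others, of the 4 animals and of the motif came after seeing the values. The window and lists were chosen with earlier results of these data known. The alternatives tried changed the centring, background correction (normexp), dye correction (loess), the value source, probe filters, slide, the replicate number, sex term, array weights, segmentation settings and leaving out each animal.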

Additional observations from a re-analysis of the deposited data

Results flagged for a closer look

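Values of 1 group were screened for single animals far from the rest, over the window, its stretches and the named probes. Of 34 such screens 3 found one. Chance flags about 1 in 20 unselected groups, a rate that does not apply to probes named for their wide range. The window mean of ICSI-derived replicate 1 was 0.041, below the other 4 ICSI-derived animals at 0.088 to 0.095. That array is among the 3 with the most noise between neighbouring probes, whose part in this value was not tested. Naturally born replicate 2 was at -0.12 at 175758149 to 175758208, where the other naturally born animals lay between 0.48 and 0.71. It was at -0.51 at 175895321 to 175895380, against -0.084 to 0.043 in the others. Both are probes at which the 4 animals, naturally born replicate 2 among them, stood apart, so these values restate that pattern.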

How the results depend on the processing

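No member probe was called by limma under any of the alternatives run, with 1 to 10 members at an unadjusted p under 0.05, against 2.2% to 4.44% of all autosomal probes. Leaving out ICSI-derived replicate 1 gave the 10, and array weights gave 7. With the replicate number as a block, a replicate block, the count was 0 as well. Same-numbered animals did not deviate together, at correlations from -0.28 to 0.15, so the numbers were not taken as pairs. The difference in window mean stayed within the spread between animals in all alternatives, and ran from -0.0012 to 0.015 when each animal was left out in turn. With normexp it was -0.0047. The segment count of 8 was 1 with normexp, 0 with a penalty factor of 6, 2 with a minimum of 10 probes and 4 at a threshold of 0.4. The 4 stretches became 1 with a penalty factor of 6, 6 with a factor of 2 and 3 with a minimum of 10 probes. The probes with the same 4 animals at one end, an analysis added after seeing the data, numbered 17 with normexp and 19 with the other 6 alternative values, and 19 to 24 when each animal was left out. Leaving out an animal also raised the share of all autosomal probes, from 0.756% to between 1.03% and 4.30%, the latter with the 24 probes without naturally born replicate 2. All 71 probes were well above background on the 10 arrays.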

Other observations

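Outside the run on chromosome 1, the same 4 animals stood apart by 0.2 or more at 4 autosomal probes. At 141648144 to 141648203 of chromosome 1 they were the lowest, at 0.029 to 0.23, with the other 6 animals at 0.52 to 0.76. At 184064479 to 184064538 and 186811588 to 186811647 of chromosome 1 they were the highest, at 0.17 to 0.32 and 0.44 to 0.64, with the others at -0.12 or below and at 0.20 or below. On chromosome 10, at 127454107 to 127454166, they lay at 0.049 to 0.21 and the others at -0.23 or below.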
